A study of Mus musculus with 24 samples.

Results

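The 9 keratin genes described here are Krt7, Krt8, Krt18, Krt19 and Krt20, which belong to simple epithelia, Krt4, Krt13 and Krt15, which belong to stratified epithelia, and Krt23, which is kept apart from both. They were chosen by name, each through the array transcript cluster that names that gene alone, and they are 9 of 30743 genes measured in the series. RNA came from mouse intestine and from organoids, closed epithelial structures grown from it in gel. The 6 groups held 4 arrays each: fetal organoids from embryonic day 19 (E19) at day 3 and at day 30 of culture, adult organoids at day 3 and at day 30, newborn (P0) intestine and adult intestine. All organoids grew in ENR, a culture medium named for its EGF, Noggin and R-spondin, and the labels give no strain, allele or other treatment for any group. The design compares culture time, the age of the donor and culture with tissue. No label says whether the 4 replicates of a group were separate animals or cultures, so the p-values measure only the spread between these arrays, which may be technical.

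Keratins are the intermediate filament proteins of epithelial cells, and a filament forms from pairs of a type I and a type II keratin. Among the genes here Krt4, Krt7 and Krt8 are type II, and Krt13, Krt15, Krt18, Krt19, Krt20 and Krt23 are type I. In the intestinal epithelium the type II keratin is mainly Krt8, with Krt18, Krt19 and Krt20 as partners, and Krt20 marks the differentiated cells of the villus. Krt4 and Krt13 are a pair of the suprabasal layers of the oesophagus and other inner stratified epithelia, and Krt15 is known from basal cells of stratified epithelia.

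RefSeq's GRCm38.p6 table held the upstream sequence of 6 of the 9 genes, and 4 are shown because their genes are partners or neighbours with unlike changes in these data. Krt8 and Krt18, the main filament pair, are adjacent protein-coding genes on chromosome 15. Krt20 and Krt23, the 2 keratins that differed most between organoids and adult tissue and in opposite directions, are adjacent on chromosome 11. Each sequence is the 250 bases before the annotated start, 5′ to 3′ on the gene's strand: chr15:102004343-102004592 (minus strand) for Krt8, chr15:102027966-102028215 (plus strand) for Krt18, chr11:99438154-99438403 (minus strand) for Krt20 and chr11:99493121-99493370 (minus strand) for Krt23. Capitals mark matches, on either strand, to any of the 5 motifs searched.
Krt8: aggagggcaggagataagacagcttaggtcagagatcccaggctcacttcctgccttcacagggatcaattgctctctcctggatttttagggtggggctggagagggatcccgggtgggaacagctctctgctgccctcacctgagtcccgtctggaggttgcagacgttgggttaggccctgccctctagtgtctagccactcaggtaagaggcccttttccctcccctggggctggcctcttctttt
Krt18: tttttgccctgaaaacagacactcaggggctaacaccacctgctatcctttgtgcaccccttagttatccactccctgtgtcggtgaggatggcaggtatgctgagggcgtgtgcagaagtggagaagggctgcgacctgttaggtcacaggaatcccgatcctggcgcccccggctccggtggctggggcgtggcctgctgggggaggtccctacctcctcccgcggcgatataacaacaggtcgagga
Krt20: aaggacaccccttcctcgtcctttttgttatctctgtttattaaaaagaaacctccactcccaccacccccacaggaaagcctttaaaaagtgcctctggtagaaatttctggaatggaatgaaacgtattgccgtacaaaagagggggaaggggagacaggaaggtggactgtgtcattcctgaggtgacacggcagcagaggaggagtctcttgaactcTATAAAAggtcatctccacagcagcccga
Krt23: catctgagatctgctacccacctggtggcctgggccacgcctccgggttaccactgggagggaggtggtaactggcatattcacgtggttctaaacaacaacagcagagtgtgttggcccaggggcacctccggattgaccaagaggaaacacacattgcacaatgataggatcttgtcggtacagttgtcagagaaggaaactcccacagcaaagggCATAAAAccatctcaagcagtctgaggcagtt
Of 32851 upstream windows of this length, 12.4% held the TATA box, searched as TATAAA, and 17.0% held a TATA-like run, searched as ATAAAA. The AP-1 motif, with the letters TGANTCA, was in 6.75% of windows. The CDX motif, searched for as TTTATG, was in 10.8%, and the GC box, with the letters GGGCGG, in 32.7%. Krt20 had TATAAA 29 bases before its start, overlapping its ATAAAA match. Krt23 had ATAAAA 31 bases before its start, and the same bases gave its TTTATG match on the other strand. The windows of Krt8 and Krt18 held none of the 5. Of the genes not shown, Krt13 had ATAAAA 29 bases before its first start, overlapping a TTTATG match, and TGANTCA at both of its starts, while Krt7 had 4 GGGCGG matches and ATAAAA 7 bases before its start. The first 4 of these motifs were chosen after the sequences had been read, and ATAAAA after the matches of the others had been seen, so the matches are a description of the letters only.

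Levels are log2 signals, and a difference of 1 is 2-fold. Adjusted p-values are from limma with Benjamini-Hochberg adjustment over all 30743 genes, and a gene is called at an adjusted p under 0.05. Negative control probe sets give the background: their median lay between 3.84 and 4.61 on the 24 arrays. Probes differ in brightness, so levels are compared between groups of 1 gene, not between genes. Genes of intestinal epithelium (10 genes, such as Epcam and Cdx2) averaged 9.35 to 9.65 on the organoid arrays, 9.01 to 9.12 in P0 tissue and 9.56 to 9.82 in adult tissue. Genes of mesenchyme and smooth muscle (10 measured) averaged 8.43 to 9.02 in P0 tissue, 6.92 to 7.68 in adult tissue and 4.94 to 6.51 in organoids. In whole tissue, fewer cells of a type and less RNA per cell cannot be told apart, and the part of the other cells in the differences between organoids and tissue was not tested. Fetal organoid arrays 2 and 3 of day 3 stood apart by stomach genes, whose list averaged 7.92 and 7.89 there against 6.41 and 5.25 on arrays 1 and 4, and the results that they change are given without them.

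**Figure D1:**
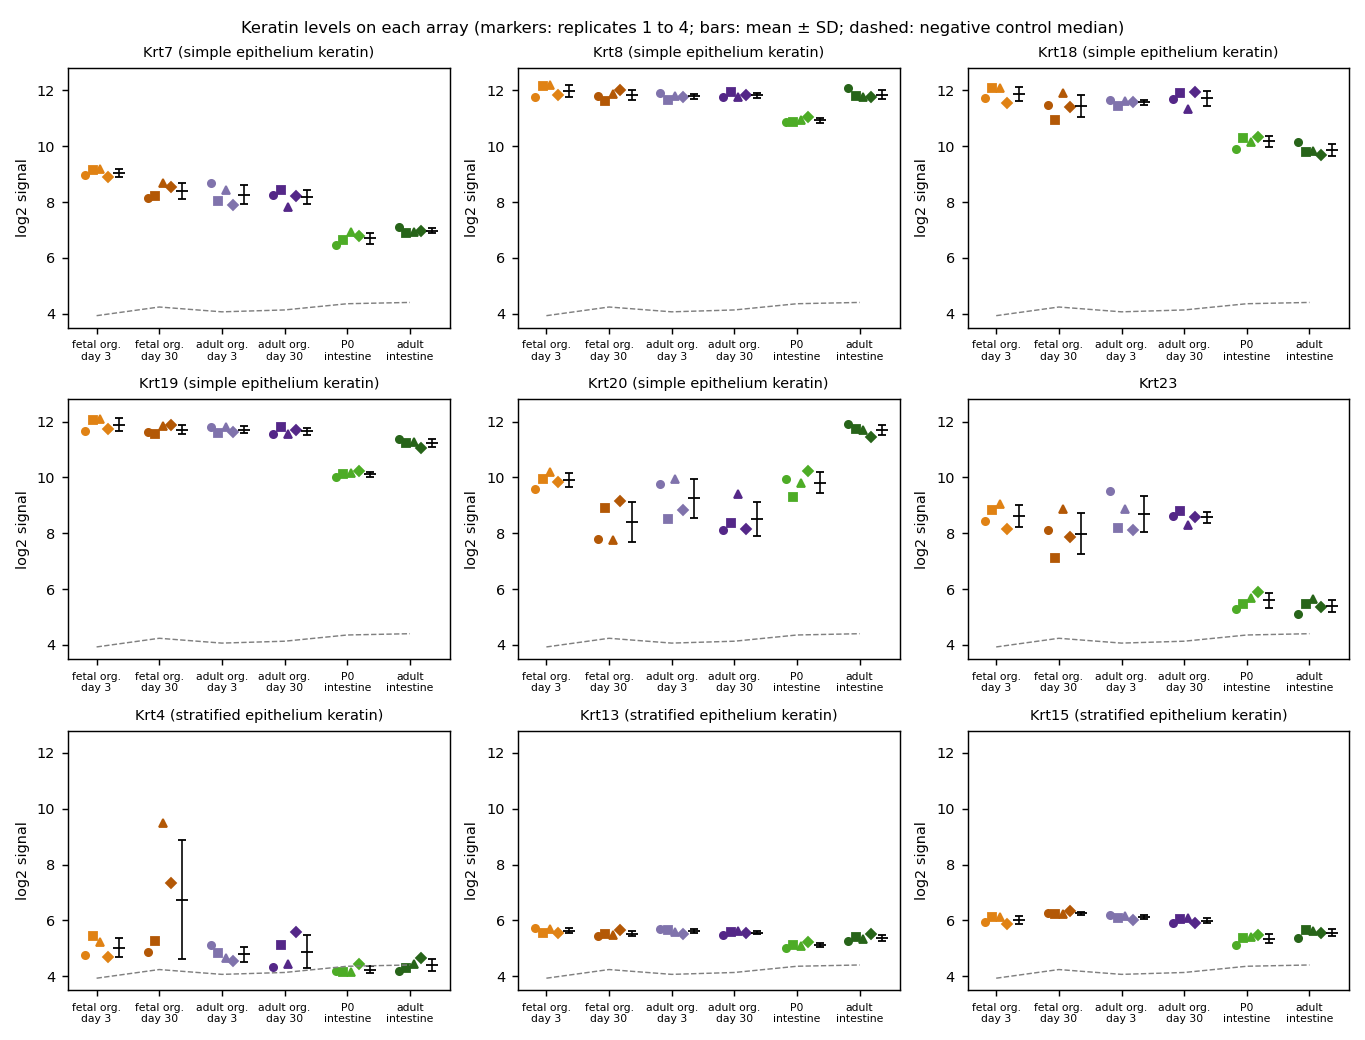
Log2 signal of each keratin on the 24 arrays, by group, with replicate markers, the mean ± SD of each group and the negative control median as a dashed line. Krt8, Krt18 and Krt19 lie above 9.5 on every array, Krt13 and Krt15 stay between 5.03 and 6.32, and Krt4 is high only on fetal day 30 arrays 3 and 4.

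Krt8 was high in all organoids and in adult tissue and lower in newborn tissue. It measured 11.77, 12.14, 12.20 and 11.85 in fetal organoids at day 3 and 11.81, 11.60, 11.88 and 12.01 at day 30. In adult organoids it was 11.92, 11.67, 11.79 and 11.75 at day 3 and 11.75, 11.95, 11.77 and 11.83 at day 30. P0 intestine gave 10.85, 10.86, 10.92 and 11.06, and adult intestine 12.07, 11.80, 11.76 and 11.75. The 4 P0 arrays lay below every other array, and the other 5 groups overlapped. Krt8 was higher in adult than in P0 tissue by 0.92 ± 0.10 (SE; 1.89-fold, adjusted p = 2.4e-07), and higher in fetal day 3 organoids than in P0 tissue by 1.07 ± 0.10 (adjusted p = 3.3e-08). Between adult day 3 organoids and adult tissue the difference was -0.06 ± 0.10 (adjusted p = 0.7), but a further quantile normalization made it -0.46 (adjusted p = 0.0012).

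Krt18, the type I partner of Krt8, did not follow it in tissue. Its values were 11.74, 12.08, 12.09 and 11.56 in fetal organoids at day 3, 11.47, 10.96, 11.91 and 11.40 at day 30, 11.66, 11.43, 11.60 and 11.58 in adult organoids at day 3, and 11.70, 11.90, 11.33 and 11.93 at day 30. P0 tissue gave 9.91, 10.31, 10.16 and 10.34, and adult tissue 10.16, 9.81, 9.83 and 9.68. All 16 organoid arrays lay above all 8 tissue arrays, and the 2 tissue groups overlapped. Krt18 was higher in adult day 3 organoids than in adult tissue by 1.70 ± 0.17 (3.24-fold, adjusted p = 2.4e-08) and higher in fetal day 3 organoids than in P0 tissue by 1.69 ± 0.17 (adjusted p = 5.5e-08). From P0 to adult tissue it differed by -0.31 ± 0.17 (adjusted p = 0.18), beside the rise of 0.92 in Krt8, and the difference between these changes was not tested.

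Krt19, another partner of Krt8 and the smallest keratin, was lowest in P0 tissue and intermediate in adult tissue. Fetal organoids measured 11.66, 12.06, 12.10 and 11.74 at day 3 and 11.62, 11.55, 11.83 and 11.87 at day 30. Adult organoids measured 11.82, 11.59, 11.80 and 11.62 at day 3 and 11.55, 11.80, 11.57 and 11.70 at day 30. P0 tissue gave 10.01, 10.11, 10.15 and 10.23 and adult tissue 11.38, 11.25, 11.28 and 11.06. The organoid groups overlapped, and the tissue groups overlapped neither each other nor the organoids. Krt19 was higher in adult than in P0 tissue by 1.12 ± 0.10 (2.17-fold, adjusted p = 1.3e-08) and higher in fetal day 3 organoids than in P0 tissue by 1.77 ± 0.10 (adjusted p = 1.1e-11). It was higher in adult day 3 organoids than in adult tissue by 0.47 ± 0.10 (adjusted p = 0.00083), a call lost under a further quantile normalization (0.11, adjusted p = 0.47).

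Krt7, a type II keratin of ductal and glandular epithelia, was highest in fetal organoids at day 3. They measured 8.96, 9.14, 9.18 and 8.90, against 8.13, 8.20, 8.70 and 8.54 at day 30. Adult organoids gave 8.68, 8.05, 8.44 and 7.90 at day 3 and 8.27, 8.44, 7.84 and 8.22 at day 30. P0 tissue gave 6.47, 6.63, 6.93 and 6.77 and adult tissue 7.10, 6.90, 6.94 and 6.97. The fetal day 3 arrays lay above all others, the other 3 organoid groups overlapped, and so did the 2 tissues, below all organoids. In fetal organoids Krt7 fell by 0.65 ± 0.16 from day 3 to day 30 (adjusted p = 0.0053). At day 3 it was lower in adult than in fetal organoids, with a difference of -0.78 ± 0.16 (1.72-fold, adjusted p = 0.00067). It exceeded tissue by 2.35 ± 0.16 in fetal day 3 organoids (5.08-fold, adjusted p = 9.4e-11) and by 1.29 ± 0.16 in adult day 3 organoids (adjusted p = 4.5e-07). Without fetal day 3 arrays 2 and 3 the culture change was -0.54 (adjusted p = 0.087). Genes of other cell types were lower in the same comparisons: 10 of 17 stomach genes and 8 of 10 mesenchyme and smooth muscle genes in fetal culture, beside 8.73% of all genes, and 10 of 17 and 7 of 10 in adult against fetal organoids at day 3, beside 10.1%. Their part in the Krt7 differences was not tested.

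Krt20, the keratin of differentiated villus cells, was the 1 keratin called lower in adult organoids than in adult tissue. Adult tissue was highest at 11.93, 11.72, 11.69 and 11.45, and P0 tissue gave 9.95, 9.30, 9.80 and 10.21. Fetal organoids measured 9.59, 9.96, 10.20 and 9.85 at day 3 and 7.80, 8.91, 7.77 and 9.16 at day 30. Adult organoids measured 9.77, 8.50, 9.94 and 8.84 at day 3 and 8.13, 8.38, 9.42 and 8.15 at day 30. All adult tissue arrays lay above every other array, fetal day 3 organoids overlapped P0 tissue, and the spread was wide in the other 3 organoid groups (SD 0.61 to 0.73). Krt20 was lower in adult day 3 organoids than in adult tissue, by a difference of -2.44 ± 0.34 (5.41-fold, adjusted p = 3e-06), and higher in adult than in P0 tissue by 1.88 ± 0.34 (3.69-fold, adjusted p = 0.00015).

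In fetal organoids Krt20 fell by 1.49 ± 0.34 from day 3 to day 30 (2.81-fold, adjusted p = 0.0033), and in adult organoids the difference was -0.74 ± 0.34 (adjusted p = 0.55). The 2 changes differed by -0.75 ± 0.48 (adjusted p = 0.56). Without fetal day 3 arrays 2 and 3 the fetal change was -1.31 (adjusted p = 0.054). The mean of 8 villus enterocyte genes was 9.26 to 9.56 in fetal organoids at day 3 and 8.23 to 8.62 at day 30, with 4 of 8 called lower (Apoa1, Ada, Nt5e and Enpp3) and 0 higher, beside 8.73% of all genes lower and 6.77% higher. The lipoprotein gene Apoa4 was at 0.06 (adjusted p = 0.92) and the alkaline phosphatase gene Alpi at -0.72 (adjusted p = 0.12) in that comparison. Their mean was 10.55 to 10.93 in adult tissue and 8.46 to 9.17 in adult day 3 organoids, with 7 of 8 called lower in the organoids, beside 13.4% of all genes. The list and Krt20 did not run together in the other tissue comparisons. In adult against P0 tissue 2 villus genes were higher and 1 lower (median -0.05), beside the rise of 1.88 in Krt20. In fetal day 3 organoids against P0 tissue 6 of 8 were lower and 1 higher (median -0.98), while Krt20 differed by 0.08 ± 0.34 (adjusted p = 0.85). Crypt stem cell genes (5 genes, such as Lgr5 and Olfm4) averaged 6.52 to 7.75 in fetal organoids at day 3 and 8.05 to 9.0 at day 30, with 4 of 5 called higher, beside 6.77% of all genes. The part of these cell types in the Krt20 differences was not tested.

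Krt23, a type I keratin found in several glandular and digestive epithelia, was well above background in organoids and low in tissue. Fetal organoids measured 8.45, 8.83, 9.06 and 8.17 at day 3 and 8.13, 7.11, 8.86 and 7.85 at day 30. Adult organoids measured 9.52, 8.21, 8.86 and 8.13 at day 3 and 8.60, 8.79, 8.31 and 8.57 at day 30. P0 tissue gave 5.29, 5.48, 5.70 and 5.91 and adult tissue 5.11, 5.45, 5.65 and 5.36. Every organoid array lay above every tissue array, while the 4 organoid groups overlapped, as did the 2 tissues. The tissue values exceeded 59.1% to 78.0% of the negative control probe sets of their arrays, so they stood little above background and no fold over them is given. Krt23 was higher in adult day 3 organoids than in adult tissue by 3.29 ± 0.29 (adjusted p = 5.2e-09) and in fetal day 3 organoids than in P0 tissue by 3.03 ± 0.29 (adjusted p = 4e-08).

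Krt23 in fetal organoids differed by -0.64 ± 0.29 from day 3 to day 30 (adjusted p = 0.16), and without fetal day 30 array 3 by -0.93 (adjusted p = 0.029). Krt18 in the same comparison was at -0.43 ± 0.17 (adjusted p = 0.088) and -0.59 without that array (adjusted p = 0.016). Of 18 alternative settings or sets of arrays, 16 left Krt23 uncalled and 15 left Krt18 uncalled. Tuft cell genes (9 measured) averaged 6.38, 5.24, 6.10 and 5.26 on the fetal day 30 arrays, where the 2 higher values stood on the arrays with the 2 higher Krt23 levels. At day 3 the tuft list averaged 4.93 to 5.13 in fetal organoids, whose Krt23 was 8.17 to 9.06. In adult tissue that list was at 5.43 to 5.81 with Krt23 at 5.11 to 5.65, and its part in the Krt23 levels was not tested.

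**Figure D2:**
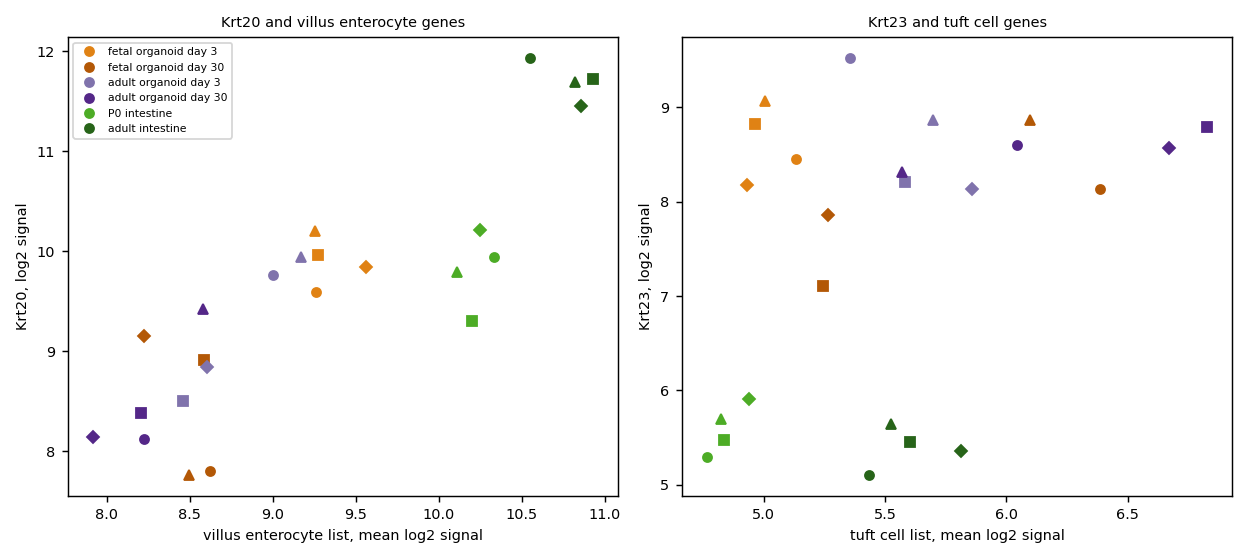
Left, Krt20 log2 signal against the mean log2 signal of 8 villus enterocyte genes; right, Krt23 against the mean of 9 tuft cell genes; each point is 1 of 24 arrays, coloured by group. Adult tissue is highest on both axes on the left, and on the right the fetal day 3 organoids combine tuft means of 4.93 to 5.13 with Krt23 levels of 8.17 to 9.06.

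Krt4, a type II keratin of suprabasal stratified cells, was near background except on 2 arrays. Fetal organoids at day 30 measured 4.86, 5.26, 9.51 and 7.33, a spread (SD 2.14) that no other keratin showed in any group. At day 3 they measured 4.76, 5.44, 5.21 and 4.70. Arrays 3 and 4 of day 30 lay above all other 22 arrays, and arrays 1 and 2 lay within the range of day 3. Adult organoids gave 5.13, 4.82, 4.64 and 4.53 at day 3 and 4.33, 5.12, 4.44 and 5.59 at day 30. Tissue gave 4.19, 4.17, 4.15 and 4.44 at P0 and 4.19, 4.31, 4.45 and 4.66 in the adult, where 5 of these 8 values were below the negative control median of their array. The size of a difference from P0 tissue, whose mean lay below that median, is therefore uncertain.

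Krt4 was not called in any of the 8 comparisons. It differed by 1.71 ± 0.59 between day 30 and day 3 in fetal organoids (adjusted p = 0.053), and by -1.87 ± 0.59 between adult and fetal organoids at day 30 (adjusted p = 0.051). The first was 0.03 without fetal day 30 arrays 3 and 4 (adjusted p = 0.97) and 0.79 without array 3 alone (adjusted p = 0.21). It was called without array 1 or 2 of that group, which have low values (2.34 and 2.20, adjusted p = 0.0062 and 0.015), with only genes above the array median on 4 or more arrays (adjusted p = 0.037), with centred arrays (1.80, adjusted p = 0.044) and after a further quantile normalization (1.77, adjusted p = 0.049). The second was called without fetal day 30 array 1 or 2 (-2.49 and -2.36, adjusted p = 0.0074 and 0.017), without adult day 30 array 4 (-2.11, adjusted p = 0.048), with that filter (adjusted p = 0.032) and with array weights (-1.79, adjusted p = 0.048), and was -0.19 without fetal day 30 arrays 3 and 4 (adjusted p = 0.83). Between fetal day 3 organoids and P0 tissue Krt4 differed by 0.79 ± 0.59 (adjusted p = 0.28), with no overlap of arrays. This SE includes the wide spread of fetal day 30. With the compared groups fitted alone that difference was called (adjusted p = 0.0032).

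Markers of other epithelia were examined on the arrays with high Krt4. The stomach list (17 genes) averaged 4.68, 4.68, 5.94 and 5.13 in fetal day 30 organoids, but 7.92 and 7.89 on fetal day 3 arrays 2 and 3, where Krt4 was 5.44 and 5.21. Some genes singled out after their values were seen were high on fetal day 30 array 3: Tff2, a stomach mucus peptide, at 12.4, Msln, which encodes mesothelin, at 10.3, Ctse, an aspartic protease of gastric surface cells, at 8.65, and Ivl, the cornified envelope protein involucrin, at 7.23. Further stomach genes were also highest on array 3. On fetal day 30 arrays 1 to 4, Tff1 was 4.88, 5.17, 8.95 and 7.50 and Vsig1 3.01, 3.11, 6.70 and 4.95. Psca was 5.03, 4.53, 6.07 and 5.26. On fetal day 3 arrays 2 and 3, Tff1 was 12.02 and 12.03, Vsig1 9.09 and 9.20, and Psca 7.03 and 7.92. Some of the remaining stomach genes were not high on fetal day 30 array 3. On fetal day 30 arrays 1 to 3 Muc5ac was 4.53, 4.41 and 4.64, Muc6 4.62, 4.47 and 4.47, and Atp4a 5.94, 5.80 and 5.74. Sox2 was below the negative control median on all 4 fetal day 30 arrays. On fetal day 3 arrays 2 and 3 Tff2 was at 12.4 as well, and Msln at 9.89 and 9.96. The stratified epithelium list (15 genes) averaged 4.13, 4.2, 4.51 and 4.5 on the fetal day 30 arrays and 4.80 to 5.03 on those of day 3. Of its genes 7 were below the negative control median on all 4 fetal day 30 arrays, and the defining genes Trp63, the basal cell transcription factor, and Dsg3 and Dsc3, desmosomal cadherins, were below it on all 24 arrays. Some others were higher on the 2 arrays with high Krt4. On fetal day 30 arrays 1 to 4, Sprr1a, a cornified envelope precursor, was 5.47, 5.87, 7.06 and 6.71, Ly6d was 5.12, 4.86, 6.56 and 6.84, and Ivl was 3.86, 4.03, 7.23 and 5.36. But on the fetal day 3 arrays, where Krt4 was 4.70 to 5.44, Ly6d was 10.15 to 10.83, Sprr1a 7.12 to 7.66 and Ivl 4.81 to 6.89. Pkp1 of the same list was 5.35, 6.11, 5.44 and 6.06 on fetal day 30 arrays 1 to 4, and Tgm1 was 4.99, 5.06, 5.03 and 5.07. The mesothelium list (5 genes) averaged 4.67, 4.70, 5.84 and 5.07 on the fetal day 30 arrays and 5.41 to 6.31 in P0 tissue, where Krt4 was at background. Of its genes on the fetal day 30 arrays, Msln was higher on arrays 3 and 4 than on arrays 1 and 2 (5.87 and 4.79). The others did not share this pattern. Wt1 was 4.64 to 4.72, Lrrn4 was 4.04 to 4.32, and Muc16 was below the negative control median on all 4 arrays. Upk3b was 5.64, 6.93, 7.11 and 5.73 on arrays 1 to 4. The part of these cell types in the Krt4 levels was not tested.

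**Figure D3:**
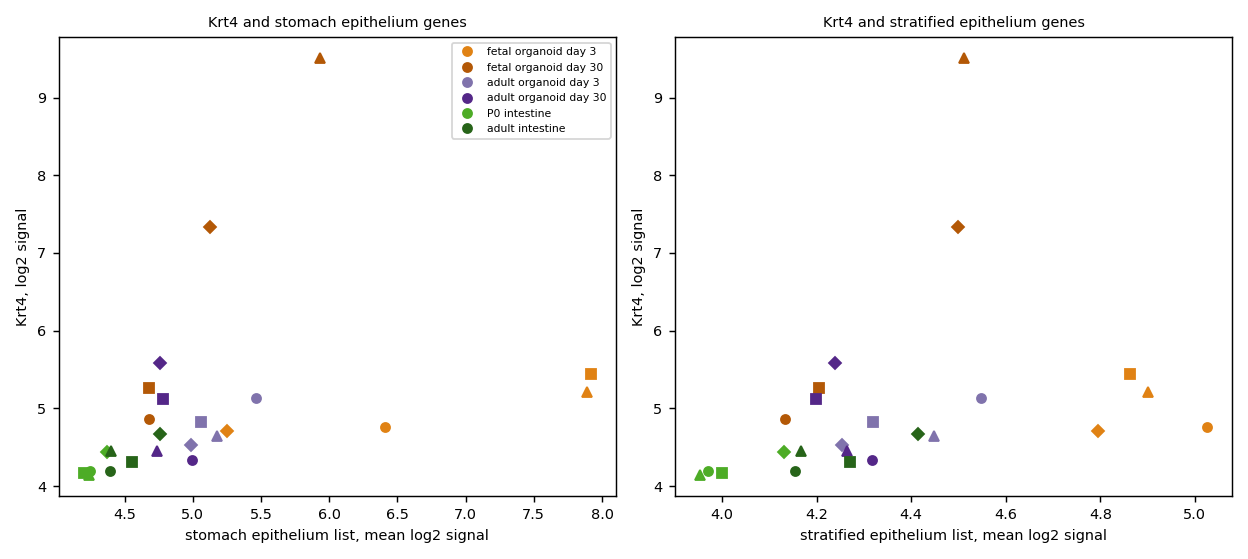
Krt4 log2 signal against the mean log2 signal of 17 stomach genes (left) and of 15 stratified epithelium genes (right), with 1 point per array coloured by group. The 2 fetal day 30 arrays with Krt4 at 9.51 and 7.33 have stomach means of 5.94 and 5.13, and arrays 1 and 2 of that group have 4.68 and 4.68. Fetal day 3 arrays 1 to 4 have 6.41, 7.92, 7.89 and 5.25.

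Krt13, the usual type I partner of Krt4, did not share its 2 high arrays. It measured 5.71, 5.55, 5.70 and 5.54 in fetal organoids at day 3 and 5.44, 5.51, 5.49 and 5.66 at day 30. Adult organoids gave 5.68, 5.67, 5.59 and 5.51 at day 3 and 5.49, 5.58, 5.63 and 5.54 at day 30. P0 tissue gave 5.03, 5.12, 5.08 and 5.21 and adult tissue 5.25, 5.40, 5.35 and 5.52. These values exceeded 60.5% to 81.0% of negative control probe sets, so the gene stood little above background, and only P0 tissue lay apart from all other groups. Krt13 was higher by 0.51 ± 0.07 in fetal day 3 organoids than in P0 tissue (adjusted p = 5.8e-06) and by 0.27 ± 0.07 in adult than in P0 tissue (adjusted p = 0.0065), a call lost without P0 arrays 2 and 3 (0.26, adjusted p = 0.058). Adult day 3 organoids exceeded adult tissue by 0.23 ± 0.07 (adjusted p = 0.013), with 1 pair of overlapping arrays and a loss of the call without adult tissue array 1 (0.19, adjusted p = 0.056) or with the compared groups fitted alone (adjusted p = 0.051).

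Krt15, the type I keratin of basal stratified cells, changed little and at low signal. Fetal organoids measured 5.93, 6.11, 6.13 and 5.86 at day 3 and 6.26, 6.22, 6.22 and 6.32 at day 30. Adult organoids measured 6.18, 6.09, 6.15 and 6.03 at day 3 and 5.92, 6.05, 6.08 and 5.91 at day 30. P0 tissue gave 5.12, 5.38, 5.41 and 5.48 and adult tissue 5.38, 5.66, 5.62 and 5.54. All organoid arrays lay above all tissue arrays, by 0.56 ± 0.08 in adult day 3 organoids (adjusted p = 7.8e-06) and 0.66 ± 0.08 in fetal day 3 organoids over P0 tissue (adjusted p = 1.5e-06). Within organoids Krt15 rose by 0.25 ± 0.08 in fetal culture (adjusted p = 0.045) and was lower in adult than in fetal organoids at day 30, with a difference of -0.27 ± 0.08 (adjusted p = 0.047). Leaving out any 1 of the 4 fetal day 30 arrays ended both calls, with adjusted p from 0.065 to 0.1 for the first and from 0.074 to 0.098 for the second. The first was also lost without fetal day 3 array 1 or 4 (adjusted p = 0.1 and 0.14), and the second without adult day 30 array 1, 2 or 4 (adjusted p = 0.13, 0.058 and 0.13). The background level of the negative controls also differed, with group medians of 3.93 in fetal day 3 organoids and 4.40 in adult tissue, and its part in these small differences was not tested.

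Set by comparison, most keratin calls separated organoids from tissue. In fetal day 3 organoids against P0 tissue 7 of 9 keratins were higher and 0 lower, beside 44.3% of all genes called (30.5% higher, 13.8% lower), with a median difference of 1.07 against 0.14 for all genes. All 17 stomach genes were higher in the same comparison (median 2.89), and their part in the keratin differences was not tested. That count includes genes at or near background. Cblif, at 3.48 against 3.21, was below the negative control median on all arrays of both groups, and Muc6 averaged 4.74 against 4.36. In adult day 3 organoids against adult tissue 6 were higher and 1, Krt20, lower, beside 35.3% of all genes (21.9% higher, 13.4% lower), with a median of 0.47 against 0.02. In adult against P0 tissue 4 were higher (Krt8, Krt13, Krt19 and Krt20) and 0 lower, beside 27.1% of all genes (14.9% higher, 12.1% lower). In the same comparison 8 of 10 intestinal epithelium genes were higher and 9 of 10 mesenchyme and smooth muscle genes lower, and their part in the keratin rises was not tested. Of the 5 simple epithelium keratins, 4, 4 and 3 were called in these 3 comparisons, and of the 3 stratified ones 2, 2 and 1. These comparisons share arrays, so their counts are not independent.

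Among organoids few keratins were called. From day 3 to day 30, 3 of 9 changed in fetal organoids (Krt7 and Krt20 lower, Krt15 higher), beside 15.5% of all genes (6.77% higher, 8.73% lower), and without fetal day 3 arrays 2 and 3 the count was 1. In adult organoids 0 of 9 were called, beside 0.0488% of all genes (0.026% higher, 0.0228% lower), and 1, Krt20, had an unadjusted p under 0.05 in limma, as did 8.41% of all genes. For the difference between the 2 culture changes 0 of 9 were called, beside 2.98% of all genes (1.01% higher, 1.96% lower), and 3 had an unadjusted p under 0.05, as did 13.6% of all genes. Adult and fetal organoids differed in 1 keratin at day 3 (Krt7), beside 24.5% of all genes (14.4% higher, 10.1% lower), and in 1 at day 30 (Krt15), beside 8.95% (6.79% higher, 2.17% lower). The keratin shares at day 3 and at day 30 thus lay near or below the background.

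The split of called genes depended on the scaling between arrays. Among all called genes, 68.9% were higher in fetal day 3 organoids than in P0 tissue, but 54.5% after centring arrays on their median, which took the median of all genes from 0.14 to 0.06, and 53.3% after a further quantile normalization. For adult against P0 tissue the share was 55.2%, then 40.1% and 43.1%. For the fetal culture change it was 43.7%, and 65.4% after centring. For adult against fetal organoids it was 58.9% at day 3, and 75.8% at day 30 with 52.3% after a further quantile normalization. No called keratin changed direction under either scaling.

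**Figure D4:**
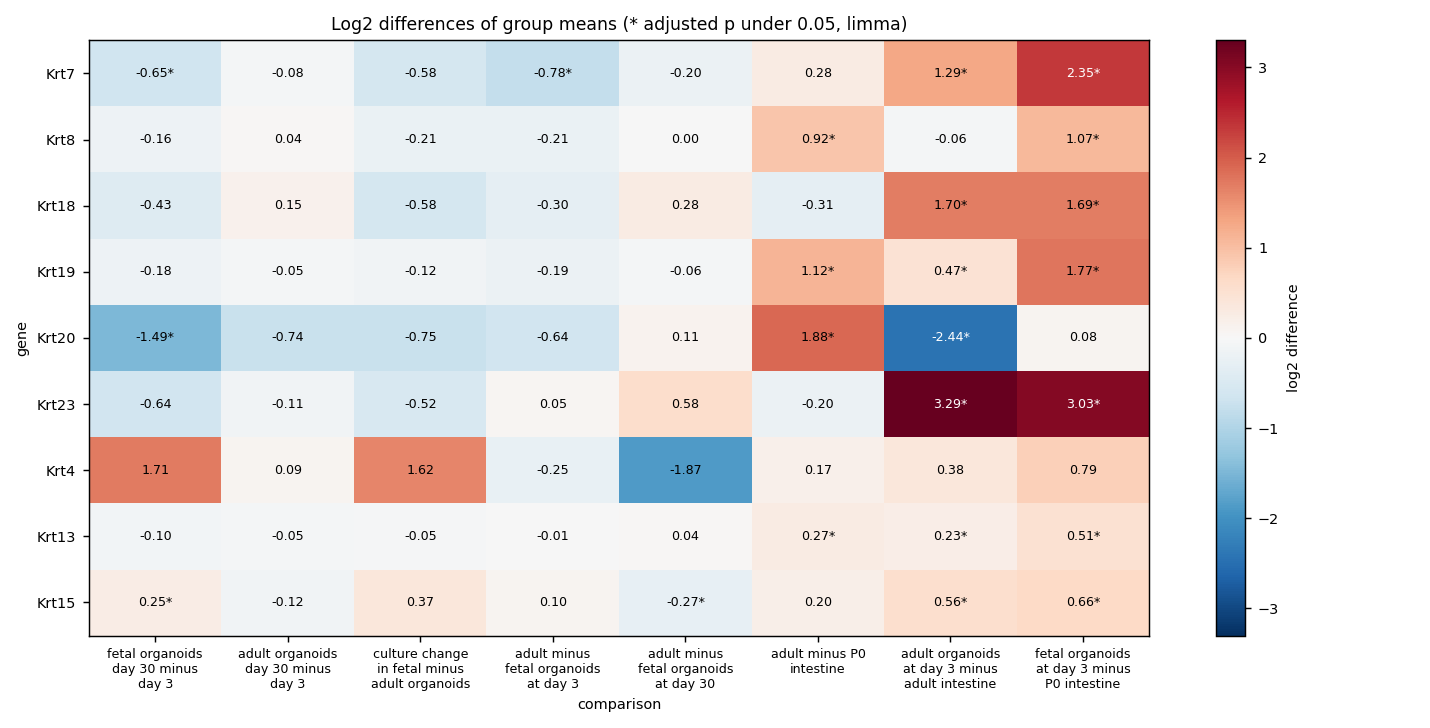
Log2 difference of group means for the 9 keratins in the 8 comparisons, coloured from lower (blue) to higher (red), with an asterisk at an adjusted p under 0.05. The last 3 columns, which involve tissue, hold 18 of the 23 calls, and Krt20 is the 1 keratin called lower in organoids than in tissue, at -2.44.

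Keratins outside the chosen set were mostly near background. Of 17 listed, 15 were measured, and their mean was 4.51 to 4.95 on all 24 arrays. In fetal day 3 organoids 8 of 15 were higher than in P0 tissue and 0 lower, beside 30.5% and 13.8% of all genes. Krt84 was higher by 0.66 ± 0.12 (adjusted p = 9.4e-05), a size that is uncertain since its P0 mean was below the negative control median. Also higher were Krt80 with 0.56 ± 0.13 (adjusted p = 0.001) and Krt17 with 0.49 ± 0.09 (adjusted p = 9.4e-05). Krt17 fell by 0.28 ± 0.09 in fetal organoids from day 3 to day 30 (adjusted p = 0.029), the 1 call of 15 there, beside 15.5% of all genes. Between adult day 3 organoids and adult tissue Krt10 was higher by 0.43 ± 0.08 (adjusted p = 0.00016) and Krt12 lower, at -0.40 ± 0.10 (adjusted p = 0.0024). These were the 2 calls of 15 there, beside 35.3% of all genes. In adult against P0 tissue 4 were higher and 1 lower, beside 14.9% and 12.1% of all genes.

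Desmosomes, hemidesmosomes and linker proteins anchor keratin filaments to cell junctions and to the matrix. Of 20 measured genes of these structures, 12 were higher and 2 lower in adult than in P0 tissue, beside 14.9% and 12.1% of all genes. The plakophilin Pkp1 rose by 1.31 ± 0.15 (adjusted p = 4.1e-07), and the desmosomal cadherins Dsg2 and Dsc2 by 1.25 ± 0.11 (adjusted p = 5.2e-09) and 1.13 ± 0.13 (adjusted p = 2.4e-07). In fetal day 3 organoids against P0 tissue 13 were higher and 3 lower, beside 30.5% and 13.8% of all genes, and Ppl, the linker periplakin, was higher by 1.46 ± 0.15 (adjusted p = 1.4e-07). In adult day 3 organoids against adult tissue 3 were higher and 7 lower, beside 21.9% and 13.4% of all genes. Ppl was higher by 1.01 ± 0.15 (adjusted p = 1.2e-05), while the linkers Dst and Plec were lower, at -0.99 ± 0.13 (adjusted p = 1.7e-06) and -0.92 ± 0.10 (adjusted p = 1.6e-07). In fetal culture 1 was higher and 7 lower, beside 6.77% and 8.73% of all genes. The higher gene was Pkp1, by 0.45 ± 0.15 (adjusted p = 0.045), and the lower ones included Dst, at -0.59 ± 0.13 (adjusted p = 0.0029), and Plec, at -0.44 ± 0.10 (adjusted p = 0.0042). Adult organoids had 0 called between days 3 and 30. In adult against fetal organoids at day 3, 1 was higher and 7 lower, beside 14.4% and 10.1% of all genes: Pkp1 was higher by 1.28 ± 0.15 (adjusted p = 1.8e-06), and Dsg2 and Dsc2 were lower, at -0.58 ± 0.11 (adjusted p = 0.00042) and -0.51 ± 0.13 (adjusted p = 0.004). At day 30 the 1 call was Pkp1, higher by 0.95 ± 0.15 (adjusted p = 0.00035), beside 8.95% of all genes.

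Genes with the most similar pattern were sought by Pearson correlation of log2 level over the 24 arrays among 16972 genes, a description in which organoid and tissue arrays form separate clusters. Krt7 was nearest to Lpcat4 (r = 0.982), Ppl (0.952) and Dusp4 (0.95). Krt8 and Krt19 shared their nearest genes Sqor, Abcc3 and Golm1, at 0.937, 0.928 and 0.927 for Krt8 and 0.976, 0.965 and 0.962 for Krt19. Krt18 was nearest to Parm1 (0.967), Ccnd2 (0.961) and Kmt5a (0.958), and Krt20 to Mocos (0.97), Mxd1 (0.959) and Ccnyl1 (0.944). Krt23 was nearest to Thoc3 (0.947), Hdgf (0.944) and Pak1ip1 (0.941). For the stratified keratins the nearest were Gsta4 (0.921), Tmem238 (0.921) and Gstm1 (0.918) for Krt13, Cdc25c (0.935), Gtse1 (0.931) and Smim3 (0.929) for Krt15, and Zfp777 (0.774), Arfip2 (0.771) and Tnpo2 (0.761) for Krt4. Among the keratins, of 36 pairs computed, Krt8 and Krt19 had r = 0.94 over 24 arrays and 0.94 over the 16 organoid arrays, Krt18 and Krt23 had 0.968 and 0.778, and the filament partners Krt8 and Krt18 had 0.568 and 0.715. Krt20 had r = -0.679 with Krt18 over 24 arrays and 0.096 over the organoid arrays.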

How the data were processed

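Total RNA was labelled with biotin and hybridised to 24 Affymetrix arrays of 1 colour, and the 6 groups of 4 follow the labels. The authors deposited log2 signals, and the submitters' processing notes name Affymetrix Expression Console and RMA. RMA corrects background, normalizes quantiles between arrays and summarises probes, which can compress small differences. The sources used here give no tool version or build, and do not say whether all arrays shared 1 normalization. Precision is limited by the number of arrays.

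Of 65956 transcript clusters, 32750 had a symbol, and 31216 named 1 gene. The cluster with the highest mean was used where a gene had several, which gave 30743 genes, and each keratin had 1 cluster. Clusters that name several genes were left out. Probe sequences were not used here, so signal shared with related keratins or pseudogenes was not checked.

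Group means of all 24 arrays were fitted with limma 3.58.1 in R 4.3.3 (18 residual degrees of freedom), and 8 comparisons were tested two-sided with Benjamini-Hochberg adjustment over all genes. The method was tested on simulated data. Named genes are the 9 keratins, the up to 3 most changed called members of the lists of other keratins and of junction genes, of which the text prints part, and the 3 genes most correlated with each keratin. The members, lists and alternatives were chosen with earlier results of these data known. Leaving out fetal day 30 arrays 3 and 4 was added after the data were seen. Alternatives changed the filter, scaling, prior, weights, arrays, threshold and pairing. Same-numbered replicates correlated at -0.306 to 0.296, and no 2 arrays were identical.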

Additional observations from a re-analysis of the deposited data

Results flagged for a closer look

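Of 54 sets of 4 arrays (9 keratins in 6 groups), 2 held an array whose gap to its nearest neighbour was large for the range of the set, where chance gives about 1 in 20 sets. Krt8 in adult intestine was 12.07 in replicate 1 and 11.75 to 11.8 in the other arrays. Krt4 in P0 intestine was 4.44 in replicate 4 and 4.15 to 4.19 in the others, all near the negative control median.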

How the results depend on the processing

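Of 72 keratin differences tested, 23 were called. Under the alternatives 16 of these stayed called throughout, 7 were lost in at least 1, and 9 uncalled differences were called in at least 1. None changed sign with a call, and 18 changed sign without one. The count for adult against fetal organoids at day 30 (1) was 2 when genes had to exceed their array's median on 4 or more arrays and 2 with array weights, and 0 with a trended and robust prior, with the compared groups alone, at an adjusted p under 0.01, and without fetal day 30 arrays 3 and 4. Leaving out single arrays gave 0 to 1. The count for adult against fetal organoids at day 3 (1) was 3 with a second quantile normalization and with array weights. The count for fetal culture (3) was 1 without fetal day 3 arrays 2 and 3, and 2 to 4 leaving out single arrays. The causes were not tested. With the replicate number as a replicate block the counts were 3 for fetal culture, 0 for adult culture, 0 for their difference, 1 and 1 for adult against fetal organoids, 4 for adult against P0 tissue, and 7 and 7 for organoids against tissue, and the block changed no call. No pairing of all arrays by replicate number was seen: in 0 of 15 pairs of groups were all same-number correlations over 0.1. For fetal organoids at day 3 and day 30 they were 0.249, -0.056, 0.157 and 0.036. Such correlations cannot exclude a shared origin of some arrays, on which the labels are silent. By Spearman correlation the nearest genes changed rank: Golm1 was rank 445 for Krt19 and Arfip2 rank 2942 for Krt4. Signal over background limits Krt13 and Krt15 in all groups, Krt23 in tissue, and Krt4 on all arrays but fetal day 30 arrays 3 and 4.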
